A study of Bos taurus with 30 samples.

Results

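Genes with a steady mRNA level are used as the yardstick against which other genes are read in PCR assays, and 4 genes often chosen for this were examined in the visceral adipose tissue of heifer calves on contrasting diets. The 4 genes were ACTB (ENSBTAG00000026199), GAPDH (ENSBTAG00000014731), B2M (ENSBTAG00000012330) and YWHAZ (ENSBTAG00000000236), taken by identifier from a table of 24596 genes. A gene was used if its mean over the 30 libraries was above 10, and all 4 genes met this.

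Angus by Holstein-Friesian heifer calves were reared on a high (HI, n = 15) or a moderate (MOD, n = 15) plane of nutrition, and omental fat was taken from every calf at 21 weeks of age. In the calf phase of 8 weeks, HI calves were offered up to 10 litres of milk replacer per day with free access to concentrate, and MOD calves up to 4 litres with concentrate that was raised in steps to at most 1 kg. In the 11 weeks after weaning, concentrate was again unrestricted for HI calves and held at 1 kg per day for MOD calves, with hay for both. The HI diet was set for a gain of 1.2 kg per day and the MOD diet for 0.5 kg. One mRNA library was sequenced per calf, so each calf is a separate animal and the spread between libraries includes the spread between calves. Groups differed in milk, concentrate and growth together, and the parts of the diet cannot be told apart.

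ACTB encodes beta-actin, a building block of the filaments that give a cell its shape and move it. GAPDH encodes glyceraldehyde-3-phosphate dehydrogenase, an enzyme of glycolysis, the pathway that breaks down glucose and that in adipocytes also supplies the glycerol backbone of stored fat. B2M encodes beta-2-microglobulin, the light chain that MHC class I molecules need at the surface of nearly all nucleated cells. YWHAZ encodes the zeta member of a family of adaptor proteins that bind phosphorylated partners in many signalling pathways. Since they belong to unrelated processes, such genes are commonly measured side by side. ACTB and GAPDH have processed pseudogenes and ACTB a close relative, ACTG1, so reads that aligned to several copies may be missing from their values.

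Reads counted on genes ranged from 11847883 to 19383275 per calf. Values are given as TMM-normalized CPM, which are reads per 1000000 of a library size that was corrected by the trimmed mean of M-values method. TMM factors had a mean of 0.94 ± 0.10 over the HI calves and of 1.07 ± 0.10 over the MOD calves (SD, n = 15 each), so the choice of scaling bears on every comparison between the diets. The median correlation of a calf's log2 values with the other calves of its diet was 0.79 for HI calf 2120 and 0.88 for MOD calf 975, against 0.93 to 0.97 over the 27 calves other than 2120, 975 and 911. Calf 911, the library with the fewest reads, was at 0.93, no lower than MOD calf 1057, and did not stand apart by this measure. It was left out with calves 2120 and 975 as an alternative chosen earlier, and results that rest on these 3 calves are given with and without them. The labelled tissue could not be checked against its marker genes, because the table lists Ensembl identifiers and only these 4 were paired with names here. The table gives no transcript lengths, and levels were compared between calves for one gene at a time, not between genes.

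None of the 4 genes was called between the diets. Relative to MOD, the level in HI calves was 0.87-fold for ACTB, 1.01-fold for GAPDH, 1.04-fold for B2M and 0.95-fold for YWHAZ. In adipose tissue as a whole, a change in the number of cells of a type and a change in the mRNA of each cell cannot be told apart. Genes were called with limma on log2(value + 0.5) where the fold change exceeded 1.5 and the adjusted p was below 0.05; 856 of 12738 genes (6.72%) met this, against 0 of the 4 reference genes. At an unadjusted p under 0.05, which 3508 genes (27.5%) met with limma, the count was also 0 of 4. It was 0 of 4 with the exact test of edgeR (7.91% of all genes called), its quasi-likelihood test (7.27%) and DESeq2 (8.24%). The same held for limma-voom with quality weights for the libraries (9.74%). With each of these tests it held both by the call and at an unadjusted p under 0.05. With TMM, the 95% interval of the fold change (limma) lay inside 1.5-fold in either direction for all 4 genes. The same held for 7371 (57.9%) of the genes tested.

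**Figure D1:**
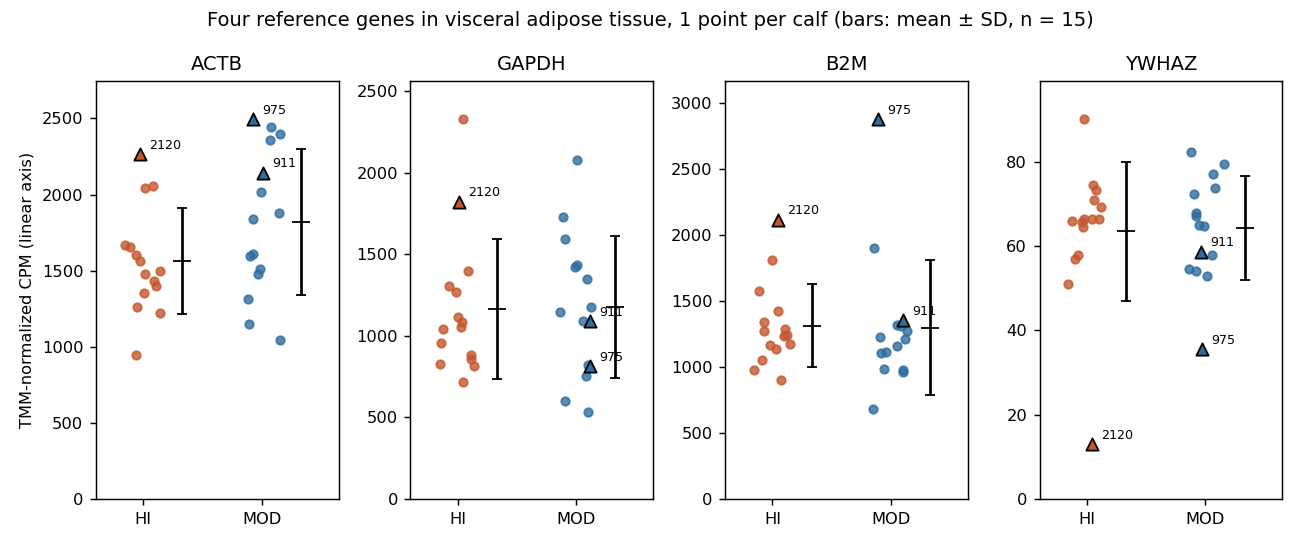
TMM-normalized CPM of ACTB, GAPDH, B2M and YWHAZ (vertical axes, linear, from 0) in HI and MOD calves (horizontal axis), with 1 point per calf, triangles for calves 2120, 975 and 911, and bars for the mean ± SD (n = 15). The diets overlapped for every gene, and calf 2120 had the lowest YWHAZ value (12.9) while calf 975 had the highest B2M value (2882).

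ACTB was the reference gene with the largest estimated difference between the diets. In HI calves its TMM-normalized CPM ran from 945 in calf 1388 through a median of 1496 to 2266 in calf 2120, and in MOD calves from 1048 in calf 991 through a median of 1840 to 2496 in calf 975. The MOD median was exceeded by only 3 of the 15 HI animals, but 14 of them fell within the MOD range. ACTB averaged 1563 ± 346 under HI and 1819 ± 480 under MOD (SD, n = 15). The log2 fold change was -0.20 (standard error 0.14, 95% interval -0.48 to 0.08, adjusted p = 0.358, limma), and diet held 7.66% of the variance of the log2 value against a median of 5.04% over the genes tested.

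GAPDH had nearly the same mean level in both diets and a wide spread within each. Values ran from 717 in calf 2570 through a median of 1053 to 2329 in calf 1089 among HI calves, and from 535 in calf 2537 through a median of 1144 to 2081 in calf 1057 among MOD calves. The highest calf was therefore 3.25 times the lowest in HI, 3.89 times in MOD and 4.36 times over all 30 calves. GAPDH averaged 1165 ± 428 under HI and 1176 ± 435 under MOD (SD, n = 15), and HI differed from MOD by 0.01 on the log2 scale (standard error 0.18, 95% interval -0.36 to 0.39, adjusted p = 0.981, limma). Diet held 0.0123% of the variance. The MOD median was exceeded by 5 of the 15 HI calves, and 14 of the HI calves lay within the MOD range. Without HI calf 1089 the log2 difference was -0.066 (adjusted p = 0.858, limma).

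B2M ran from 905 in calf 1360 through a median of 1243 to 2117 in calf 2120 among HI calves, and from 685 in calf 1057 through a median of 1212 to 2882 in calf 975 among MOD calves. All 15 HI calves lay within the MOD range, and 9 of them were above the MOD median. B2M averaged 1315 ± 317 under HI and 1298 ± 512 under MOD (SD, n = 15), and HI differed from MOD by 0.06 on the log2 scale (standard error 0.15, 95% interval -0.24 to 0.36, adjusted p = 0.838, limma). The MOD standard deviation rested in part on calf 975, at 2.43 times the median of the other MOD calves.

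YWHAZ was far lower in calves 2120 and 975 than in the other 28, where it ran from 51.1 to 90.1, a 1.76-fold range. Values in HI calves ran from 12.9 in calf 2120, with the next at 51.1 in calf 1360, through a median of 66.3 to 90.1 in calf 3148. In MOD calves they ran from 35.5 in calf 975, with the next at 52.9 in calf 1082, through a median of 64.9 to 82.3 in calf 3622. YWHAZ averaged 63.5 ± 16.6 under HI and 64.2 ± 12.3 under MOD (SD, n = 15), and HI differed from MOD by -0.08 on the log2 scale (standard error 0.17, 95% interval -0.43 to 0.28, adjusted p = 0.833, limma). Without calf 2120 the estimate changed sign, to 0.08 (adjusted p = 0.592, limma), and with all calves 10 of the 15 HI values exceeded the MOD median.

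Scaling decided how near ACTB came to a call. With reads divided by library size alone, the log2 fold change of all 4 genes was below 0, at -0.39 for ACTB, -0.18 for GAPDH, -0.13 for B2M and -0.26 for YWHAZ, but the median over all genes tested was itself at -0.19. Relative to that median gene, the values were -0.20, 0.02, 0.07 and -0.07. ACTB then had an unadjusted p of 0.0132, below 0.05 like that of 37.8% of all genes, and an adjusted p of 0.0516 (limma). Its 95% interval of -0.70 to -0.09 did not hold 0. The ACTB estimate remained under 1.5-fold, but its interval reached past 1.5-fold lower, as did that of YWHAZ (-0.70 to 0.17). Over the other settings tried on all calves or without the 3 calves, the adjusted p of ACTB lay between 0.187 with limma-voom and 0.452 without the filter on low values.

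**Figure D2:**
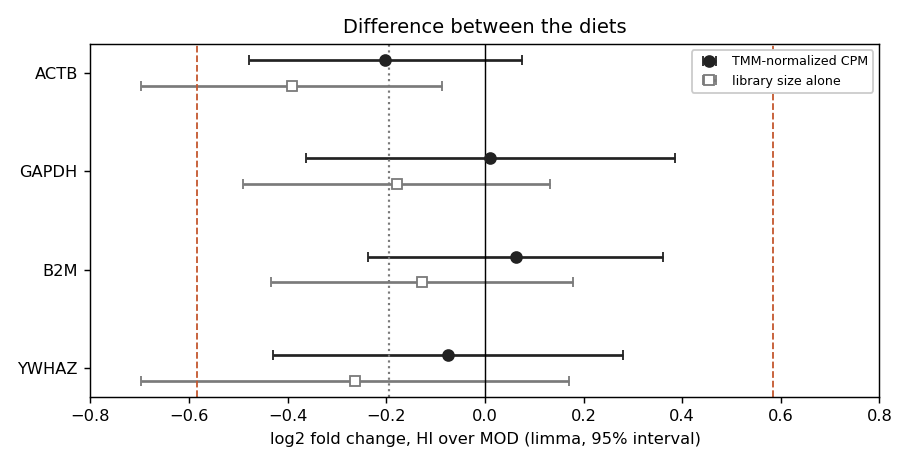
Log2 fold change of HI over MOD (horizontal axis, limma estimate with its 95% interval) for the 4 reference genes, from TMM-normalized CPM (filled circles) and from library size alone (open squares). Red dashed lines mark 1.5-fold, the dotted line marks the median of all genes with library size alone (-0.19), and the interval that excludes 0 is that of ACTB with library size alone.

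Within a diet, the order of the 4 genes by spread depended on the calves that stood apart and on the scaling. The pooled within-diet standard deviation of the log2 value was 0.36 for ACTB, 0.40 for B2M, 0.49 for YWHAZ and 0.51 for GAPDH, against a median of 0.44 over the 12738 genes tested. A smaller spread was found in 34.4% of the genes tested for ACTB, 42.5% for B2M, 60.2% for YWHAZ and 63.5% for GAPDH. Without calves 2120, 975 and 911, YWHAZ had the smallest of the 4 values, at 0.20, followed by B2M (0.30), ACTB (0.34) and GAPDH (0.51), and the median gene was at 0.31. In those 27 calves 2033 of the 12738 genes had a smaller spread than YWHAZ and 10664 (83.7%) a smaller spread than GAPDH. Leaving out calf 2120 alone took YWHAZ to 0.26, and leaving out calf 975 alone took B2M to 0.33. With library size alone and all calves, ACTB (0.41), B2M (0.41) and GAPDH (0.42) had nearly the same spread and YWHAZ the widest (0.61).

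Genes of similar level give a closer yardstick, because the spread of low genes includes more counting error. Among genes within 1 log2 unit of its mean level, a smaller spread was found for ACTB in 20.5% of 132 genes, for B2M in 34.1% of 176, for GAPDH in 65.7% of 198 and for YWHAZ in 71.5% of 3559. In the 27 calves the shares were 55.3%, 49.4%, 79.8% and 28.2%. With TMM, GAPDH thus had more spread than most genes of its level in either set of calves.

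Counting error was small beside these differences. ACTB, GAPDH and B2M each had at least 9990 reads in every library, for a counting error of at most 1.00%. YWHAZ had from 168 reads in calf 2120 to 1815, with a median of 976 and a counting error of 3.20% at that median. Its coefficient of variation was 26.1% in HI and 19.2% in MOD calves, and 13.7% and 14.9% without the 3 calves. That of GAPDH was 36.7% and 37.0%, and stayed at 35.9% and 37.7% without them.

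**Figure D3:**
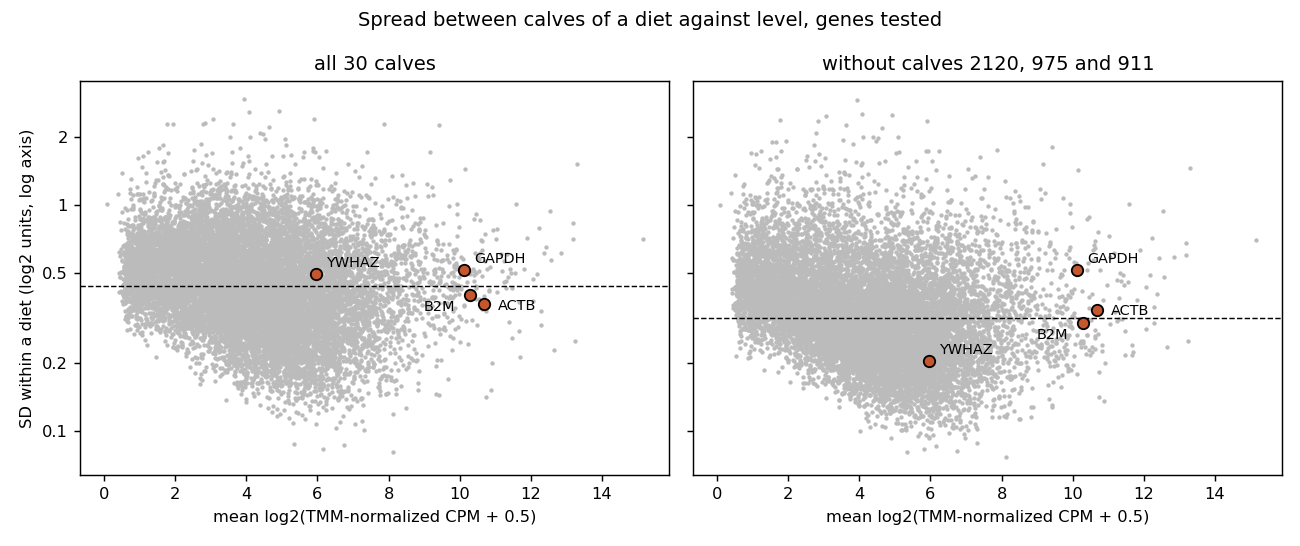
Standard deviation within a diet on the log2 scale (vertical axis, logarithmic) against mean log2(TMM-normalized CPM + 0.5) (horizontal axis) for the 12738 genes tested (grey points) and the 4 reference genes (red), with all 30 calves on the left and without calves 2120, 975 and 911 on the right. The dashed line is the median gene; YWHAZ went from 0.49 to 0.20 while GAPDH stayed at 0.51.

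The diets were compared for spread as well as level. The mean absolute deviation from the diet median was lower in HI than in MOD calves for ACTB (0.23 against 0.33), GAPDH (0.33 against 0.44) and B2M (0.23 against 0.30) and higher for YWHAZ (0.27 against 0.22), in log2 units. None of these differences passed the Brown-Forsythe test, with an adjusted p of 1.00 for each gene and unadjusted values from 0.234 for ACTB to 0.751 for YWHAZ. Of all genes tested 2 (0.0157%) passed, and 610 (4.79%) had an unadjusted p under 0.05. Without the 3 calves the deviation of YWHAZ was 0.13 in HI and 0.17 in MOD calves, and 0 genes passed the Brown-Forsythe test, with 1328 (10.4%) at an unadjusted p under 0.05.

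In calf 2120 the 4 genes moved apart rather than together. Against the median of the other HI calves, ACTB was 1.53 times, B2M 1.71 times and GAPDH 1.74 times as high, whereas YWHAZ was 4.98-fold lower. This calf had the lowest TMM factor of the 30, at 0.67, which raises all its values. With library size alone ACTB was 1.08 times, B2M 1.22 times and GAPDH 1.22 times as high and YWHAZ 7.12-fold lower, while the median gene stood at 0.67 times the other HI calves, against 0.93 times with TMM. With TMM, 12.8% of all genes tested were lowered at least as far as YWHAZ in the same library. The shares raised at least as far were 31.0% for ACTB, 26.8% for B2M and 25.9% for GAPDH. Calf 975 had B2M at 2.43 times and ACTB at 1.45 times the median of the other MOD calves, with GAPDH 1.43-fold and YWHAZ 1.85-fold lower. Only 3.85% of genes were raised as far as B2M in that calf, and 19.8% were lowered at least as far as YWHAZ. There 24.1% were raised at least as far as ACTB and 29.7% lowered at least as far as GAPDH. In calf 911 the 4 genes were between 0.89 and 1.25 times the median of the other MOD calves. The part of tissue make-up or RNA quality in these values was not tested.

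Ratios between reference genes do not depend on how libraries were scaled, since both genes come from the same library. ACTB relative to B2M was 1.19 in HI and 1.43 in MOD calves (geometric means), the ratio with the smallest unadjusted p. Its log2 difference was -0.26 (standard error 0.14, 95% interval -0.55 to 0.03, unadjusted p = 0.0723, adjusted p = 0.349, limma). The MOD median was exceeded by 1 of the 15 HI ratios for ACTB to B2M, 1 for ACTB to YWHAZ and 2 for ACTB to GAPDH. Without the 3 calves the counts were 1 for ACTB to B2M, 3 for ACTB to YWHAZ and 9 for ACTB to GAPDH. For the other 5 ratios the adjusted p lay between 0.895 and 0.955. That of ACTB to YWHAZ rested in part on calf 2120. Leaving out each calf gave log2 differences of -0.32 to -0.032 for this ratio, the lowest without calf 2120 (adjusted p = 0.179, limma). For ACTB to B2M the range was -0.32 to -0.21. Ratios with GAPDH spread widely: ACTB relative to GAPDH ran from 0.71 to 2.86 over HI calves and from 0.73 to 4.48 over MOD calves. They were not alone in this. In all calves the log2 ratio had a standard deviation of 0.74 for B2M to YWHAZ and 0.70 for ACTB to GAPDH. Without the 3 calves these were 0.28 and 0.71. Without the 3 calves the log2 difference of ACTB to B2M was -0.30, with an interval of -0.59 to -0.0044, an unadjusted p of 0.0468 and an adjusted p of 0.180 (limma). The other 5 ratios then had adjusted p-values from 0.340 for ACTB to YWHAZ to 0.974 for ACTB to GAPDH.

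A stability measure widely used for reference genes, M, averages the standard deviation of the log2 ratio of a gene to each of the others, so that a low M marks a gene that keeps step with them. M was 0.58 for ACTB, 0.61 for B2M, 0.72 for YWHAZ and 0.74 for GAPDH. GAPDH had the highest value in all calves, in MOD calves alone (0.78) and without the 3 calves (0.66). YWHAZ was highest in HI calves alone (0.85) and lowest without the 3 calves (0.39). Dropping the gene with the highest M step by step left ACTB with B2M in all calves, with a ratio that had a standard deviation of 0.37, and B2M with YWHAZ without the 3 calves, at 0.28.

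The average of the 4 genes varied less than any of them, but averaging values that do not move together lowers the spread by itself. The geometric mean of all 4 had a within-diet standard deviation of 0.16 on the log2 scale, against 0.36 for ACTB, the steadiest single gene. Without the 3 calves the gap was smaller, at 0.17 against 0.20 for YWHAZ, then the steadiest. The geometric mean of all 4 had a log2 difference, HI minus MOD, of -0.05 in all calves. Of the 3-gene means in all calves, GAPDH with B2M and YWHAZ was the steadiest at 0.17, and of the pairs B2M with YWHAZ at 0.25. Without the 3 calves the same combinations were the steadiest, at 0.18 and 0.21. No pair was then steadier than YWHAZ alone. These combinations were ranked on the same calves and are a description of them.

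Pairs of reference genes were related within each diet in 12 correlations of log2 values. ACTB and B2M had the highest r, in HI calves, at r = 0.68 (permutation p = 0.0059, adjusted p = 0.071) and rho = 0.55 (p = 0.036, adjusted p = 0.14, n = 15), and r = 0.76 without the 2 calves farthest from the ACTB median. In MOD calves the same pair had r = 0.54 (p = 0.036, adjusted p = 0.15) and rho = 0.49 (p = 0.070, adjusted p = 0.17, n = 15), and r = 0.55 without 2 calves. For GAPDH and B2M the sign was negative in MOD calves, with r = -0.52 (p = 0.042, adjusted p = 0.15) and rho = -0.66 (p = 0.0083, adjusted p = 0.099, n = 15), and r = -0.69 without 2 calves. In HI calves GAPDH and B2M had r = 0.17 (permutation p = 0.55, adjusted p = 0.73), but r = -0.49 without calves 1089 and 2120. ACTB and GAPDH in HI calves went from r = 0.0068 to -0.33 without calves 1388 and 2120. Under the adjustment over the 12 relations, 0 of 12 values of r and 0 of 12 of rho passed 0.05. With library size alone r was 0.71 for ACTB and B2M in HI and -0.71 for GAPDH and B2M in MOD calves (adjusted p = 0.026 for both). By rho, with library size alone, the HI pair did not pass (rho = 0.51, adjusted p = 0.092), and 3 MOD pairs did: ACTB with GAPDH (rho = -0.68, adjusted p = 0.031), ACTB with B2M (rho = 0.68, adjusted p = 0.031) and GAPDH with B2M (rho = -0.82, adjusted p = 0.0035). Relations of YWHAZ with ACTB and B2M in HI calves changed sign without 2 calves, calf 2120 among them. The 2 calves were chosen as the farthest from the median of ACTB or B2M, not of YWHAZ. With ACTB, r was -0.29 (p = 0.28) and rho 0.24 (p = 0.38), and r became 0.68 without calves 1388 and 2120. With B2M, r went from -0.41 (p = 0.15) to 0.66 without calves 2120 and 3148. With GAPDH it did not move, at r = -0.52 (p = 0.071, adjusted p = 0.15) with all HI calves and -0.52 without calves 1089 and 2120, and rho was -0.56 (p = 0.034, adjusted p = 0.14). In MOD calves, r between B2M and YWHAZ also changed sign. It went from -0.50 (permutation p = 0.068, adjusted p = 0.15) to 0.095 without calves 1057 and 975.

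**Figure D4:**
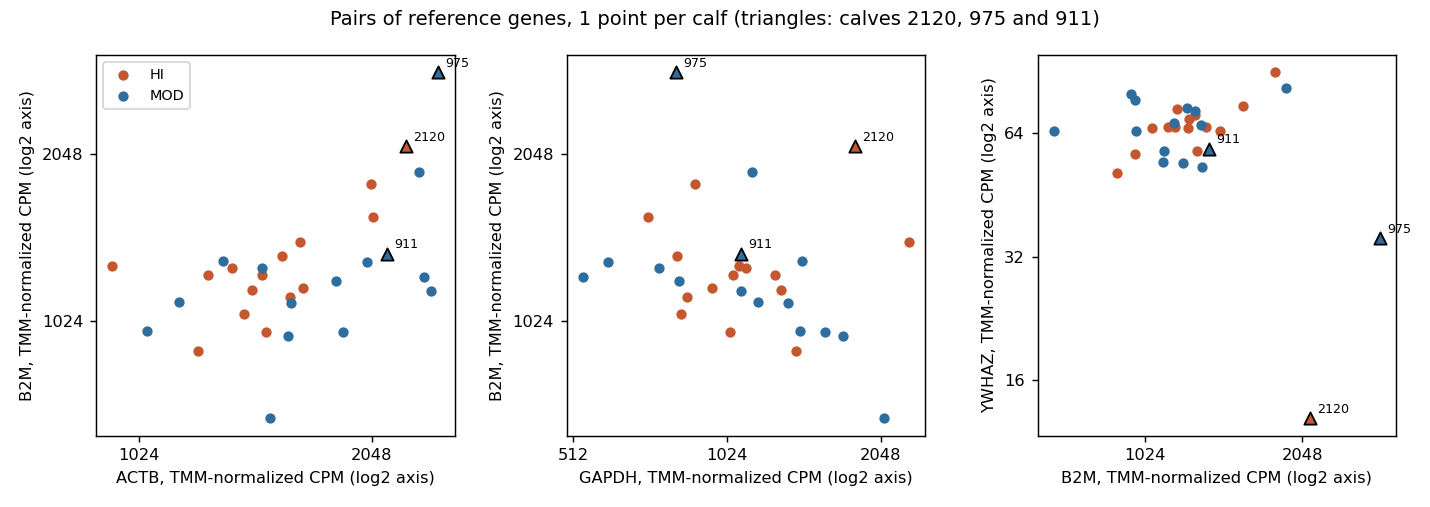
TMM-normalized CPM of B2M against ACTB, B2M against GAPDH and YWHAZ against B2M (all axes log2), with 1 point per calf, HI in red and MOD in blue, and triangles for calves 2120, 975 and 911. Between B2M and ACTB r was 0.68 in HI calves and between B2M and GAPDH -0.52 in MOD calves, neither past the adjustment over the 12 relations, and in the right panel calves 2120 and 975 combine high B2M with low YWHAZ.

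The genes most like each reference gene over the 30 calves were found after diet means were removed. For ACTB it was ENSBTAG00000006189, with r = 0.92 (0.94 without the 3 calves), and 7 genes had an r above 0.8. ENSBTAG00000006189 was lower in HI calves but not called, with a log2 difference of -0.43 (adjusted p = 0.0596, limma). For GAPDH it was ENSBTAG00000019803, with r = 0.93 (0.94 without the 3 calves), and 180 genes (1.41% of those tested) had an r above 0.8. This gene was called between the diets although GAPDH was not, at 73.2 ± 29.8 under HI and 44.5 ± 18.0 under MOD (SD, n = 15), which gave a log2 difference of 0.72 and an adjusted p of 0.0134 (limma). The next 2 genes most like GAPDH, at r = 0.92 and 0.91, were not called, with log2 differences of 0.13 (adjusted p = 0.735, limma) and -0.06 (adjusted p = 0.745, limma). For B2M it was ENSBTAG00000021424 at r = 0.86, or 0.75 without the 3 calves. For YWHAZ it was ENSBTAG00000002959 at r = 0.95, or 0.70 without them, and the number of genes with an r above 0.8 fell from 1376 to 1. These values describe the same 30 libraries, share their scaling and carry no test.

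Each reference gene was then used in place of TMM to scale all other genes, and the comparison of HI with MOD was repeated with limma. Scaled to ACTB, 903 of 12737 genes (7.09%) were called, 805 higher and 98 lower in HI calves. Scaled to GAPDH the number was 506 (3.97%), with 426 higher and 80 lower. With B2M it was 485 (3.81%), of which 195 were higher and 290 lower, and with YWHAZ 407 (3.20%), of which 307 were higher and 100 lower. With TMM 556 genes were higher and 300 lower, so that 65.0% were higher, against 89.1% with ACTB, 84.2% with GAPDH, 75.4% with YWHAZ and 40.2% with B2M. With library size alone the balance was the opposite of that with TMM, as 31.1% of 1130 genes called (8.87%) were higher. One calf turned the balance for 2 of the scaling genes: without calf 2120, YWHAZ gave 419 genes higher and 480 lower (46.6% higher), and without MOD calf 1057, B2M gave 324 higher and 263 lower (55.2% higher). Over all genes the median log2 difference lay at -0.02 with TMM, 0.18 with ACTB, -0.03 with GAPDH, -0.08 with B2M and 0.06 with YWHAZ. The share of called genes that were higher did not follow this median in every case, as with GAPDH.

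Many of the genes called with TMM were lost when 1 reference gene was the yardstick. Of the 856, the number called in the same direction was 613 with ACTB, 475 with GAPDH, 427 with B2M and 364 with YWHAZ. Standard errors of the log2 difference had a median of 0.25 with GAPDH and 0.20 with ACTB, against 0.16 with TMM. Scaling to the geometric mean of the 4 genes called 835 genes (6.56%), 623 higher and 212 lower, of which 759 were among the 856 in the same direction. Single calves decided part of these counts: without calf 2120 the number was 1401 with ACTB and 899 with YWHAZ, and without MOD calf 991 it was 1450 with ACTB. Without the 3 calves, YWHAZ called 729 genes, 453 higher and 276 lower, and 647 of the 856 kept their call and direction. The 856 came from all calves, and TMM without the 3 calves called 884 genes. That loss thus mixes the change of calves with the change of scaling.

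**Figure D5:**
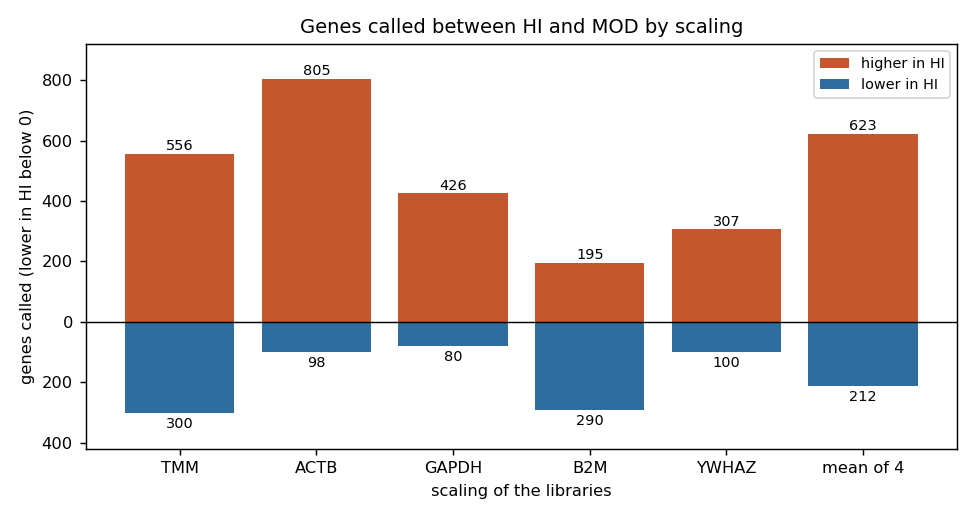
Number of genes called between HI and MOD (vertical axis, higher in HI above 0 and lower in HI below 0) by what the libraries were scaled with (horizontal axis): TMM, each reference gene, or the geometric mean of the 4. Genes higher in HI numbered from 195 with B2M to 805 with ACTB, and genes lower in HI from 80 with GAPDH to 300 with TMM.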

How the data were processed

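Visceral adipose mRNA of 30 calves was sequenced. Per the labels and the paper, the authors trimmed reads with Cutadapt, aligned them to UMD3.1 with STAR and counted them per gene; the strand setting is not given in the sources used here. The authors deposited a normalized signal, in which each gene's reads are scaled to 1000000 reads of a TMM-corrected library. Whole reads were recovered by dividing by the worth of 1 read, and 100% of 478514 values above 0 came out whole within 0.01.

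The test was limited to genes that exceeded 1 in 15 or more of the libraries. Levels were tested with limma 3.58.1 (R 4.3.3), p-values adjusted by Benjamini-Hochberg over all genes tested. Exact and quasi-likelihood tests of edgeR 4.0.16, DESeq2 1.42.0 and limma-voom ran on recovered reads as alternatives. Wherever limma-voom is named, it was run with quality weights for the libraries. Spread was compared with the Brown-Forsythe test across all genes tested, and correlations with two-sided permutation tests of 100000 resamples. Tests were tried on simulated data. The members and lists were chosen with earlier results of these data known. For each gene the most alike by r was named; 3 each were planned. Lists of glycolysis, actin, MHC class I, other reference and marker genes were not analysed here, since no table used here pairs the identifiers with names, and no sequence is printed for the same reason.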

Additional observations from a re-analysis of the deposited data

How the results depend on the processing

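No paired analysis was possible because the diets share no calf numbers, and the calf's block is not given. Of the 4 reference genes 0 were called under any alternative, leaving out each calf included. Leaving out each calf called 723 to 991 of the 12738 genes tested. The other alternatives with the fold change threshold called 797 to 1241 genes. At such shares, 0 of 4 says little about these genes in particular. ACTB kept its direction under all alternatives. Reads limit precision mainly for YWHAZ in calf 2120. The cause of the changes below was not tested.

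With library size alone, the log2 difference between HI and MOD was -0.18 for GAPDH and -0.13 for B2M, 351 genes were called higher and 779 lower, and the within-diet standard deviation was 0.42 for GAPDH and 0.61 for YWHAZ. The correlations in HI calves were then -0.31 for ACTB with GAPDH, 0.71 for ACTB with B2M, 0.22 for ACTB with YWHAZ, -0.18 for GAPDH with B2M and 0.11 for B2M with YWHAZ, and in MOD calves 0.28 for ACTB with YWHAZ and -0.71 for GAPDH with B2M. GAPDH also changed sign with the exact and the quasi-likelihood test of edgeR (-0.013 in both), limma-voom (-0.048) and without calves 2120, 975 and 911 (-0.075). YWHAZ changed sign with limma-voom (0.048) and without those calves (0.0083). Without a fold change threshold 1790 genes were called, 932 higher and 858 lower.

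Without calves 2120, 975 and 911, the GAPDH to YWHAZ ratio differed by -0.083 and the mean absolute deviation of YWHAZ by -0.048. Scaling to B2M called 756 genes, 500 of them lower, and scaling to YWHAZ called 729, 276 of them lower. The within-diet standard deviation was 0.30 for B2M and 0.20 for YWHAZ, and M was 0.46 for ACTB, 0.44 for B2M and 0.39 for YWHAZ.

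Leaving out each calf in turn gave log2 differences of -0.066 to 0.077 for GAPDH, with the sign changed in 10 of 30 cases, and -0.13 to 0.079 for YWHAZ, with the sign changed without calf 2120. It gave -0.17 to 0.075 for the GAPDH to B2M ratio, -0.12 to 0.15 for GAPDH to YWHAZ and -0.068 to 0.28 for B2M to YWHAZ. Leaving out each calf was added after the data were seen for the scaling genes and for the spread. Scaled to ACTB, 622 to 1450 genes were called, 533 to 1351 of them higher, the lowest without MOD calf 3622 and the highest without MOD calf 991. Scaled to GAPDH, 53 (without MOD calf 1689) to 112 (without MOD calf 1057) were lower. Scaled to B2M, 143 to 324 were higher and 232 to 521 lower, the highest without MOD calves 1057 and 975. Scaled to YWHAZ, 304 to 899 were called and 70 to 480 were lower, the highest without HI calf 2120. The within-diet standard deviation was 0.33 to 0.41 for B2M and 0.26 to 0.50 for YWHAZ, whose M was 0.49 to 0.74.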
